A study of Arabidopsis thaliana with 4 samples.

Results

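The genes of the DNA and histone methylation machinery of Arabidopsis thaliana were examined in plants under aluminum (Al) stress. They are 38 loci named by function (DNA methyltransferases, DNA demethylases, RNA-directed DNA methylation (RdDM), VIM and SUVH proteins, Polycomb and related genes) and not by any measured value, out of 25443 loci with a probe on the arrays. These loci, and the further lists of genes set beside them below, were chosen with earlier results of these data known. Gene-expression was measured with 4 Agilent 2-color arrays. Each array carried labeled cRNA from Al-treated (Cy5) and untreated (Cy3) plants of 1 line, so that each array gave 1 relative expression (+Al/-Al) per probe, given here as a log2 ratio. The AvSAMS1 TF line, Col-0 that expresses the S-adenosyl methionine (SAM) synthetase gene AvSAMS1 of the grass Andropogon virginicus L. from the cauliflower mosaic virus 35S promoter, had 2 arrays, and the parental wild type Col-0 ecotype had 2 arrays. The TF plants were of a single homozygous line, TF6, with 1 insertion, and the 2 replicates of each line were separate pools of plants from 2 experiments. All plants were 3 weeks old and grown in soil. Al-treated plants received AlCl3 at pH 4.2 for 2 days. The sample labels give 300 mM Al and the methods give the same figure in μM. By the labels, untreated plants of replicate 1 were sampled on day 0 and those of replicate 2 on day 2 in both lines, so that replicate 1 of either line compares plants of different ages. The paper instead describes array controls that spent 2 days at pH 4.2 without Al, and this conflict was not resolved. The labels name whole plants as the tissue but shoots in the labeling step.

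SAM is the methyl donor for DNA and histone methyltransferases. In plants, cytosine methylation at CG sites is copied at replication by MET1 with the help of VIM proteins and the remodeler DDM1, while methylation at other sites is kept by chromomethylases that work together with SUVH histone H3K9 methyltransferases. RdDM sets new methylation through small RNAs made from transcripts of RNA polymerase IV, which guide ARGONAUTE proteins to transcripts of RNA polymerase V, and DNA glycosylases such as ROS1 remove it again. All these proteins act on chromatin, and the arrays measure only their mRNAs.

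The 38 genes had 49 of the 43603 probes, and each gene was read at its brightest probe. The TF replicate 1 array stood apart from the other 3 arrays. Over the 25775 probes that exceeded background clearly in every channel of the 4 arrays, its log2 ratios correlated at -0.28 with TF replicate 2, while TF replicate 2 and Col-0 replicate 2, which shared a slide, correlated at 0.83, and the Col-0 replicates at 0.48. Over all probes the TF replicates correlated at -0.16. Dyes and plants were taken as labeled. The files do not settle whether those of TF replicate 1 differ from their label, and exchanged channels would turn the sign of all its ratios and exchange its untreated and treated levels. The Cy3 channel of TF replicate 1 had 62.1% of its spots well above background, against 68.6% to 77.9% on the other arrays. Values are therefore given per array, and for some counts that rest on TF replicate 1 those of replicate 2 alone are given too. Correlations of the same kind over the 37 measured members, which share labeling and array, were -0.41 between the TF replicates, 0.09 between the Col-0 replicates, 0.11 between the lines in replicate 1 and 0.70 between the lines in replicate 2.

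Transcripts of 37 of the 38 genes were measured, which means that on 2 or more arrays the signal of 1 channel or both was well above background. The exception was DRM1 (AT5G15380), a de novo DNA methyltransferase, which was in no channel well above background. Of the 37, 31 were well above background in all 8 channels. The untreated channel of DDM1, AGO6 and DML3 was above background only on the replicate 2 arrays, and that of CLSY1, DMS3 and ATX1 on all arrays but TF replicate 1. In the Al-treated channel AGO6 was above background only on the replicate 2 arrays, and DML3 on all arrays but Col-0 replicate 1. None of the 49 probes was saturated.

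No member passed the test for a change with Al in either line. With limma, none of the 37 members passed an adjusted p of 0.05 (Benjamini-Hochberg over all probes) in the TF line or in Col-0, where 0.0% of the 21190 loci tested passed in either line. At an unadjusted limma p under 0.05 the count of members was 0 in the TF line (3.45% of all loci) and 0 in Col-0 (7.35% of all loci). The lowest adjusted p of a member was 0.991 in the TF line and 0.73 in Col-0 (CMT3). No member was past 2-fold in the same direction on both arrays of a line, against 0.953% of all loci above and 1.44% below in the TF line and 3.69% above and 2.44% below in Col-0. The methods' t-test gave 1 member (SUVH2) at an unadjusted p under 0.05 in the TF line (2.70%, against 3.00% of all loci) and 0 in Col-0. SUVH2 had log2 ratios of -0.04 and -0.04 on the TF arrays, so that its call rests on a very small spread (limma unadjusted p = 0.872). Without TF replicate 2, so that TF replicate 1 stood alone for its line, 9 members had an unadjusted limma p under 0.05 in the TF line (MET1, VIM1, VIM2, SUVH5, NRPD2, AGO4, DMS3, ROS1 and IDM1), or 24.3% against 17.5% of all loci, and without TF replicate 1 the count was 0. In the fit without TF replicate 2 the spread came from the Col-0 arrays alone, and TF replicate 1 was assumed to vary like them. With 2 arrays a line, a p over the threshold does not show that a gene was equal in both treatments.

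Single arrays differed far more. On TF replicate 1, 13 of the 37 members (35.1%) were past 2-fold above 0, against 18.1% of all loci, and 1 member (VIM2) was past 2-fold below 0, against 11.0% of all loci. On TF replicate 2 no member was past 2-fold in either direction (7.77% of all loci above and 6.48% below), and on Col-0 replicate 1 none was either (11.8% above and 9.73% below). On Col-0 replicate 2 only AGO6 was past 2-fold, with a log2 ratio of -1.51 (8.45% of all loci above and 7.68% below). The median log2 ratio of the members was 0.64 on TF replicate 1, -0.04 on TF replicate 2, 0.03 on Col-0 replicate 1 and -0.20 on Col-0 replicate 2, beside 0.05, -0.01, 0.05 and -0.02 over all loci. TF replicate 1 held the highest of the 4 ratios for 26 of the 37 members (70.3%), against 41.1% of all loci. Among the 31 members well above background throughout, 9 were past 2-fold above 0 on TF replicate 1, with a median of 0.41. Replicate 1 gave the higher ratio for 27 members in the TF line (73.0%, against 53.2% of all loci) and for 26 in Col-0 (70.3%, against 51.7%). Members above 0 numbered 26 on TF replicate 1 (52.5% of all loci), 18 on TF replicate 2 (48.8%), 20 on Col-0 replicate 1 (53.5%) and 13 on Col-0 replicate 2 (48.0%).

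Directions were split between the replicates for many members. In the TF line 11 members were above 0 on both arrays (29.7%, against 19.9% of all loci), 4 were below 0 on both (10.8%, against 17.4%) and 22 were split (59.5%, against 62.6%), of which 15 were above 0 on replicate 1 and below 0 on replicate 2 (40.5% of the members and 32.5% of all loci). In Col-0, 9 were above 0 on both (33.1% of all loci), 12 below (30.1%) and 16 split (36.9%). Feature Extraction, whose p-value rests on the error model of 1 array, gave a p under 0.05 for 24 members on TF replicate 1 (51.2% of all loci), 11 on TF replicate 2 (38.9%), 9 on Col-0 replicate 1 (45.7%) and 11 on Col-0 replicate 2 (41.9%).

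**Figure D1:**
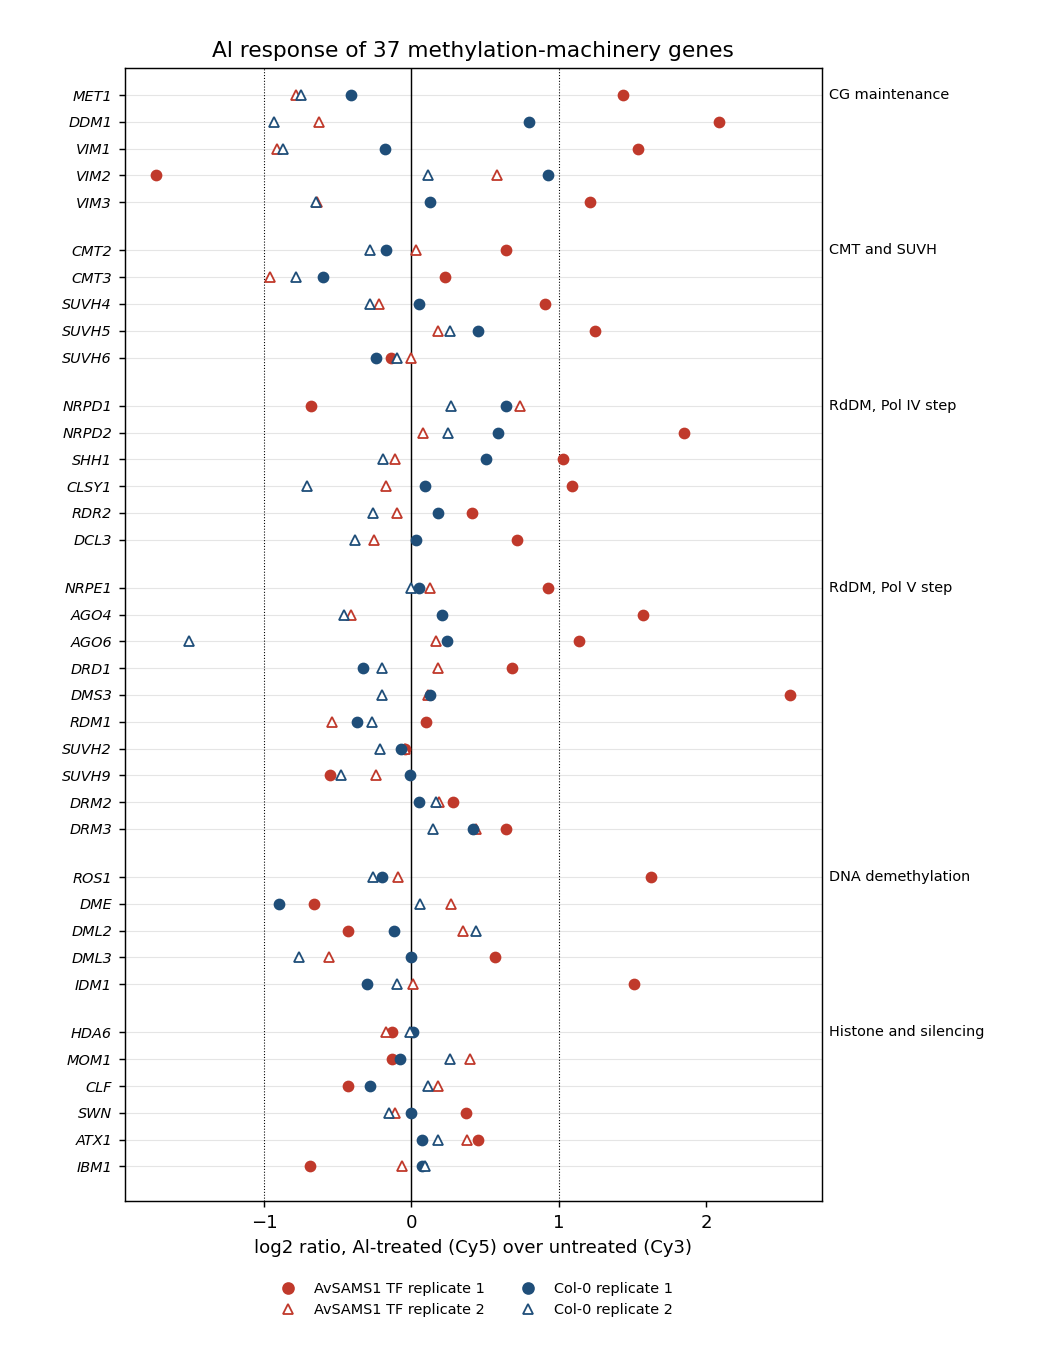
Log2 ratio of Al-treated (Cy5) over untreated (Cy3) plants on each of the 4 arrays for the 37 measured members, ordered by step. Red symbols are the AvSAMS1 TF arrays and blue symbols the Col-0 arrays, circles are replicate 1 and triangles replicate 2, and dotted lines mark 2-fold. The red circles lie to the right of the other symbols for 26 members, and only VIM2 lies past 2-fold to the left on that array.

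Genes that keep CG methylation had the widest spread between arrays of the 6 steps, with a median range of 2.45 log2 units over the 4 arrays. MET1 (AT5G49160), the CG maintenance methyltransferase, had log2 ratios of 1.44 and -0.78 on the TF arrays (replicates 1 and 2), against -0.41 and -0.75 on the Col-0 arrays. DDM1 (AT5G66750), a nucleosome remodeler needed for methylation of transposons, had 2.09 and -0.63 on the TF arrays, against 0.80 and -0.93 on the Col-0 arrays. The untreated channel of DDM1 was not well above background on either replicate 1 array. Its normalized levels (log2) there were 6.61 untreated and 7.03 Al-treated in the TF line, against 6.75 and 6.97 in Col-0. VIM1 (AT1G57820), which binds hemimethylated DNA and brings MET1 to it, had 1.54 and -0.91 on the TF arrays, against -0.18 and -0.87 on the Col-0 arrays. These 3 genes and VIM3 (1.21 and -0.64 in the TF line, 0.13 and -0.65 in Col-0) were high on TF replicate 1 and negative on both replicate 2 arrays. Means ± SD were 0.33 ± 1.57 in the TF line and -0.58 ± 0.24 in Col-0 for MET1 (n = 2 each), so that the spread between the TF replicates exceeded the difference between the lines (limma adjusted p = 0.999 for the difference). A second probe of VIM1 gave 1.40 and -1.07 in the TF line and -0.33 and -1.01 in Col-0.

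VIM2 (AT1G66050), of the same family, ran the other way on both TF arrays. Its log2 ratios were -1.73 and 0.58 on the TF arrays, against 0.93 and 0.11 on the Col-0 arrays. In the untreated channel its level on the log2 scale was 10.91 and 7.93 in the TF line, against 9.10 and 8.08 in Col-0. Both replicate 1 arrays were thus above both replicate 2 arrays in untreated plants, and the lines overlapped. The neighboring gene VIM4 (AT1G66040), a near-identical copy that is not among the 38, had ratios of -1.58 and 0.17 in the TF line, against 0.50 and -0.22 in Col-0, so that the 2 genes are uncertain as separate signals. The difference of VIM2 between the lines was -1.10 (limma adjusted p = 0.999) and 0.47 within replicate 2 alone.

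Markers of dividing cells were above 0 on TF replicate 1 and below 0 on TF replicate 2, as were the maintenance genes other than VIM2. They were 20 genes of DNA replication and mitosis (PCNA, MCM, CDKB and others), of which 16 were well above background in all 8 channels and none was at 0. Their median log2 ratio was 1.38 on TF replicate 1, where all 20 were above 0 and 16 past 2-fold, and -0.64 on TF replicate 2, where all 20 were below 0. On Col-0 it was 0.21 in replicate 1 and -0.35 in replicate 2. Their summed signal (log2) was 14.30 and 13.41 in Al-treated and 13.10 and 14.09 in untreated TF plants, against 14.38 and 14.28 in Al-treated and 14.15 and 14.49 in untreated Col-0 plants. The lowest of these 8 sums was that of untreated plants of TF replicate 1, and it was the lowest of the 4 untreated levels for 17 of the 20 markers and for 20 of the 37 members (54.1%, against 36.7% of all loci). The part of dividing cells in the values of the maintenance genes was not tested, and in whole-plant RNA fewer cells of a type and less RNA per cell cannot be told apart.

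**Figure D2:**
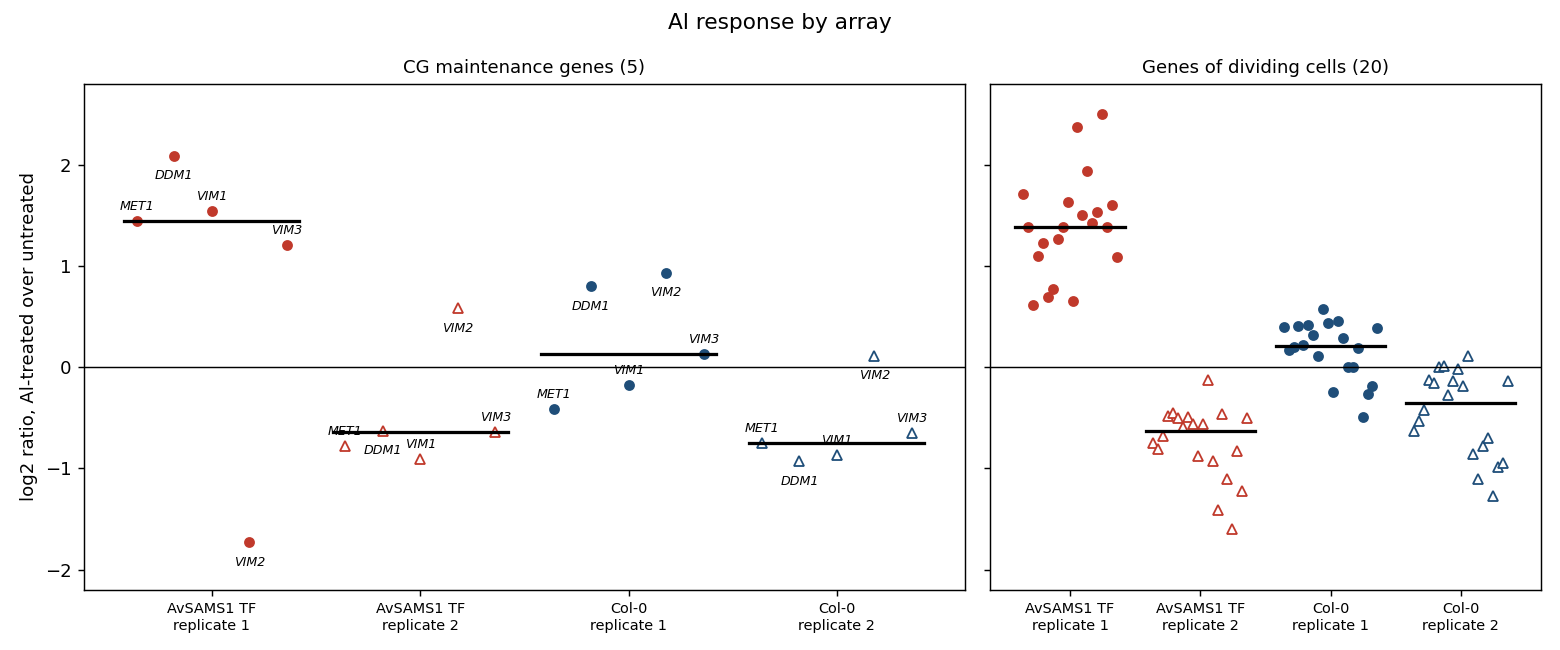
Log2 ratio of Al-treated over untreated plants on each array for the 5 CG maintenance genes (left) and for 20 genes of dividing cells (right). Each point is a gene, circles are replicate 1 and triangles replicate 2, and black bars are medians. The medians are 1.44 and 1.38 on TF replicate 1 and -0.64 and -0.64 on TF replicate 2, and on both TF arrays VIM2 lies on the other side of 0 from the other maintenance genes.

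For chromomethylases and their SUVH partners the ratios were smaller. CMT3 (AT1G69770), the CHG methyltransferase, had log2 ratios of 0.23 and -0.96 on the TF arrays, against -0.60 and -0.78 on the Col-0 arrays. It was below 0 on 3 of the 4 arrays, and its Col-0 mean of -0.69 ± 0.12 (SD, n = 2) was the lowest of all members in Col-0 (limma adjusted p = 0.73). CMT2 (AT4G19020), which methylates CHH sites of heterochromatin, had 0.64 and 0.03 on the TF arrays, against -0.17 and -0.28 on the Col-0 arrays. The lines did not overlap for CMT2, but the difference of 0.56 did not pass the test (limma adjusted p = 0.999). Of the H3K9 methyltransferases, SUVH5 was above 0 on all 4 arrays (1.25 and 0.18 in the TF line, 0.45 and 0.26 in Col-0), and SUVH4, the main partner of CMT3, had 0.91 and -0.22 in the TF line and 0.05 and -0.28 in Col-0. SUVH6 stayed between -0.24 and 0.00 on every array.

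At the polymerase IV step, which makes the small RNAs of RdDM, the values of TF replicate 1 were again the highest for 5 of 6 genes. NRPD2 (AT3G23780), the second-largest subunit shared by polymerases IV and V, had log2 ratios of 1.85 and 0.08 on the TF arrays, against 0.59 and 0.25 on the Col-0 arrays. All 4 values were above 0 and the TF mean of 0.96 ± 1.25 (SD, n = 2) lay within its own spread of the Col-0 mean of 0.42 ± 0.24. NRPD1 (AT1G63020), the largest subunit of polymerase IV, had -0.68 and 0.74 on the TF arrays, against 0.64 and 0.27 on the Col-0 arrays, and was the 1 gene of this step that was lowest on TF replicate 1. Without that array the difference between the lines for NRPD1 was 0.28, against -0.42 with it. SHH1, which recruits polymerase IV, CLSY1, a remodeler of the same complex, RDR2, which makes the RNA double-stranded, and DCL3, which cuts it, ranged between 0.41 and 1.09 on TF replicate 1 and between -0.71 and 0.51 on the other arrays.

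At the polymerase V step, where methylation is targeted, 5 of 10 measured genes had both TF ratios above both Col-0 ratios. They were NRPE1, DRD1, SUVH2, DRM2 and DRM3, beside 15.6% of all loci, and NRPE1 and DRD1 were not separated at their second probes. The separation was narrow for SUVH2, with -0.04 and -0.04 in the TF line, against -0.07 and -0.21 in Col-0. It was also narrow for DRM2 (0.28 and 0.19 in the TF line, 0.05 and 0.17 in Col-0). For DRM3 the lower TF ratio was 0.44 and the higher Col-0 ratio 0.42. DRD1 (AT2G16390), a remodeler that loads polymerase V, had log2 ratios of 0.68 and 0.18 on the TF arrays, against -0.33 and -0.20 on the Col-0 arrays (difference 0.69 ± 0.40, SE, limma adjusted p = 0.999). A second probe of DRD1, not above background in the untreated channel of replicate 1, gave 1.51 and -0.54 in the TF line and -0.09 and -0.26 in Col-0, where the lines overlapped. DRM2 (AT5G14620), the main de novo methyltransferase, stayed between 0.05 and 0.28 on all arrays, and DRM3 (AT3G17310), its catalytically inactive relative, had 0.64 and 0.44 on the TF arrays, against 0.42 and 0.15 on the Col-0 arrays. Both were above 0 on all 4 arrays.

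The ARGONAUTE and adaptor genes of this step had larger ratios but wider spread. DMS3 (AT3G49250), a structural protein of the same remodeling complex as DRD1, had log2 ratios of 2.57 and 0.11 on the TF arrays, against 0.13 and -0.20 on the Col-0 arrays. Its untreated channel on TF replicate 1 was not well above background, and its second probe gave 2.27 and 0.26 in the TF line and 0.11 and 0.05 in Col-0. The TF mean of DMS3, 1.34, was 0.21 after normexp and loess and 0.09 after normexp and median centring. AGO6 (AT2G32940) had 1.14 and 0.17 on the TF arrays, against 0.24 and -1.51 on the Col-0 arrays, and only the values of replicate 2 were measured above background. Its difference between the lines, 1.29, was 0.27 after normexp and loess and 0.22 after normexp and median centring. AGO4 (AT2G27040), which binds the small RNAs, had 1.57 and -0.41 on the TF arrays, against 0.21 and -0.46 on the Col-0 arrays, and was negative on both replicate 2 arrays. RDM1 was below 0 on all arrays but TF replicate 1 (0.10). SUVH2 and SUVH9, which recruit polymerase V to methylated DNA, were below 0 on every array, with -0.55 and -0.24 in the TF line and -0.01 and -0.48 in Col-0 for SUVH9.

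Of the DNA glycosylases that remove methylated cytosine, none was past 2-fold on more than 1 array. ROS1 (AT2G36490), the main demethylase of vegetative tissue, had log2 ratios of 1.63 and -0.09 on the TF arrays, against -0.20 and -0.26 on the Col-0 arrays. The lines did not overlap at this probe but did at a second probe of ROS1 (1.57 and -0.31 in the TF line, 0.06 and -0.55 in Col-0). IDM1 (AT3G14980), a histone acetyltransferase that guides ROS1, had 1.51 and 0.01 on the TF arrays, against -0.30 and -0.10 on the Col-0 arrays. DME, known for demethylation in the central cell, followed the replicate number with -0.66 and 0.27 in the TF line and -0.90 and 0.06 in Col-0, and DML2 did so too (-0.43 and 0.35 in the TF line, -0.12 and 0.44 in Col-0). A second probe of DME stayed between -0.17 and 0.14 on all arrays. DML3 was not above background in untreated plants of replicate 1 and had -0.56 in the TF line and -0.76 in Col-0 in replicate 2.

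Histone and silencing genes had the narrowest spread of the 6 steps, with a median range of 0.52 log2 units over the 4 arrays. HDA6, a histone deacetylase of silent chromatin, had log2 ratios of -0.13 and -0.17 on the TF arrays, against 0.01 and -0.01 on the Col-0 arrays. MOM1, which silences without changing methylation, ranged between -0.13 and 0.40, and the Polycomb H3K27 methyltransferases CLF and SWN between -0.43 and 0.37. ATX1, a trithorax-type H3K4 methyltransferase, was above 0 on all arrays with 0.45 and 0.38 in the TF line and 0.07 and 0.18 in Col-0. IBM1 (AT3G07610), a demethylase that removes H3K9 methylation from gene bodies, had -0.69 and -0.06 on the TF arrays, against 0.07 and 0.09 on the Col-0 arrays, the lines not overlapping. Of 2 further probes of IBM1, the dimmer gave -0.94 and -0.08 in the TF line and -0.15 and 0.16 in Col-0, and the other stayed between -0.30 and 0.09. For this step the medians were -0.13 and 0.06 in the TF line and 0.00 and 0.10 in Col-0.

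The difference in the Al response between the lines was tested directly, since a dye effect of a probe, which remains in a ratio of 1 line because dyes were not exchanged, cancels in it. No member passed an adjusted p of 0.05 with limma (0.0% of all loci), and none had an unadjusted p under 0.05 (0.958% of all loci). The methods' t-test gave 2 members at an unadjusted p under 0.05 (HDA6 with a difference of -0.16 and ATX1 with 0.29), or 5.41% against 1.44% of all loci. Without TF replicate 2, 8 members (21.6%, against 18.0% of all loci) had an unadjusted limma p under 0.05, with the spread again taken from the Col-0 arrays alone. With the replicate block it was 1 member (AGO6, 2.70%, against 2.96% of all loci). Both TF ratios lay above both Col-0 ratios for 9 members (CMT2, NRPE1, DRD1, SUVH2, DRM2, DRM3, ROS1, IDM1 and ATX1), or 24.3% against 15.6% of all loci, and below them for 2 members (HDA6 and IBM1), or 5.41% against 11.3% of all loci. These counts hold for the brightest probe, and SUVH2, DRM2 and DRM3 were separated only narrowly. Of the 9, NRPE1, DRD1, ROS1 and ATX1 had a second probe, and 0 of the 4 were separated there, nor were HDA6 and IBM1 at any of their other probes. The lines lay on opposite sides of 0 on all arrays for 4 members (CMT2, DRD1, IDM1 and IBM1), or 10.8% against 3.96% of all loci. Within both replicate numbers the TF ratio was above the Col-0 ratio for 23 members (62.2%, against 29.4% of all loci) and below it for 3 (8.11%, against 24.3%). The median difference was 0.57 in replicate 1 and 0.12 in replicate 2, where 28 members were above and 9 below. Over the 31 members well above background on every array, the medians were 0.47 and 0.08. Over both replicates the median difference was 0.32, beside 0.03 over all loci. Leaf genes of photosynthesis lay in the same direction, with both TF ratios above both Col-0 ratios for 11 of 12 (LHCB1.1, 1.69 and 1.00 in the TF line, -1.57 and -0.15 in Col-0), and none of the 12 was at background on any array. Their summed signal (log2) was 20.94 and 21.11 in Al-treated and 19.94 and 20.72 in untreated TF plants, against 20.15 and 20.80 in Al-treated and 21.65 and 20.90 in untreated Col-0 plants. Their part in the members' values was not tested.

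In untreated plants, labeled day 0 in replicate 1 and day 2 in replicate 2, most members were lower in the TF line than in Col-0. Levels in the untreated channel were compared after background correction and normalization between arrays, on a log2 scale, and this comparison crosses arrays. Within both replicate numbers, the TF level was below the Col-0 level for 26 of the 37 members (70.3%, against 39.9% of all loci) and above it for 5 (13.5%, against 27.0%). In replicate 2 alone the TF level was below for 30 of the 37 and above for 7. Counts over both replicates take the untreated channel of TF replicate 1 as labeled. Both TF levels were below both Col-0 levels for 15 members (40.5%, against 22.6% of all loci), namely MET1, VIM1, VIM3, SUVH4, RDR2, DCL3, NRPE1, AGO6, DRD1, DMS3, DRM3, ROS1, DME, IDM1 and MOM1. The count holds for the brightest probe, and of the 7 of these members with a second probe only NRPE1 and MOM1 were separated at it too, while VIM1, DRD1, DMS3, ROS1 and DME were not. Both were above for 5 members (13.5%, against 13.9% of all loci), namely SUVH6, SUVH2, SUVH9, DML3 and HDA6, of which HDA6 had a second, dim probe that did not separate the lines. The median difference was -0.38 (-0.41 in replicate 1 and -0.27 in replicate 2), beside -0.08 over all loci. Genes of dividing cells were also lower in the TF line, within both replicate numbers for 16 of 20 with a median of -0.57, and leaf genes for 9 of 12 with a median of -0.90. Their part in the members' levels was not tested.

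**Figure D3:**
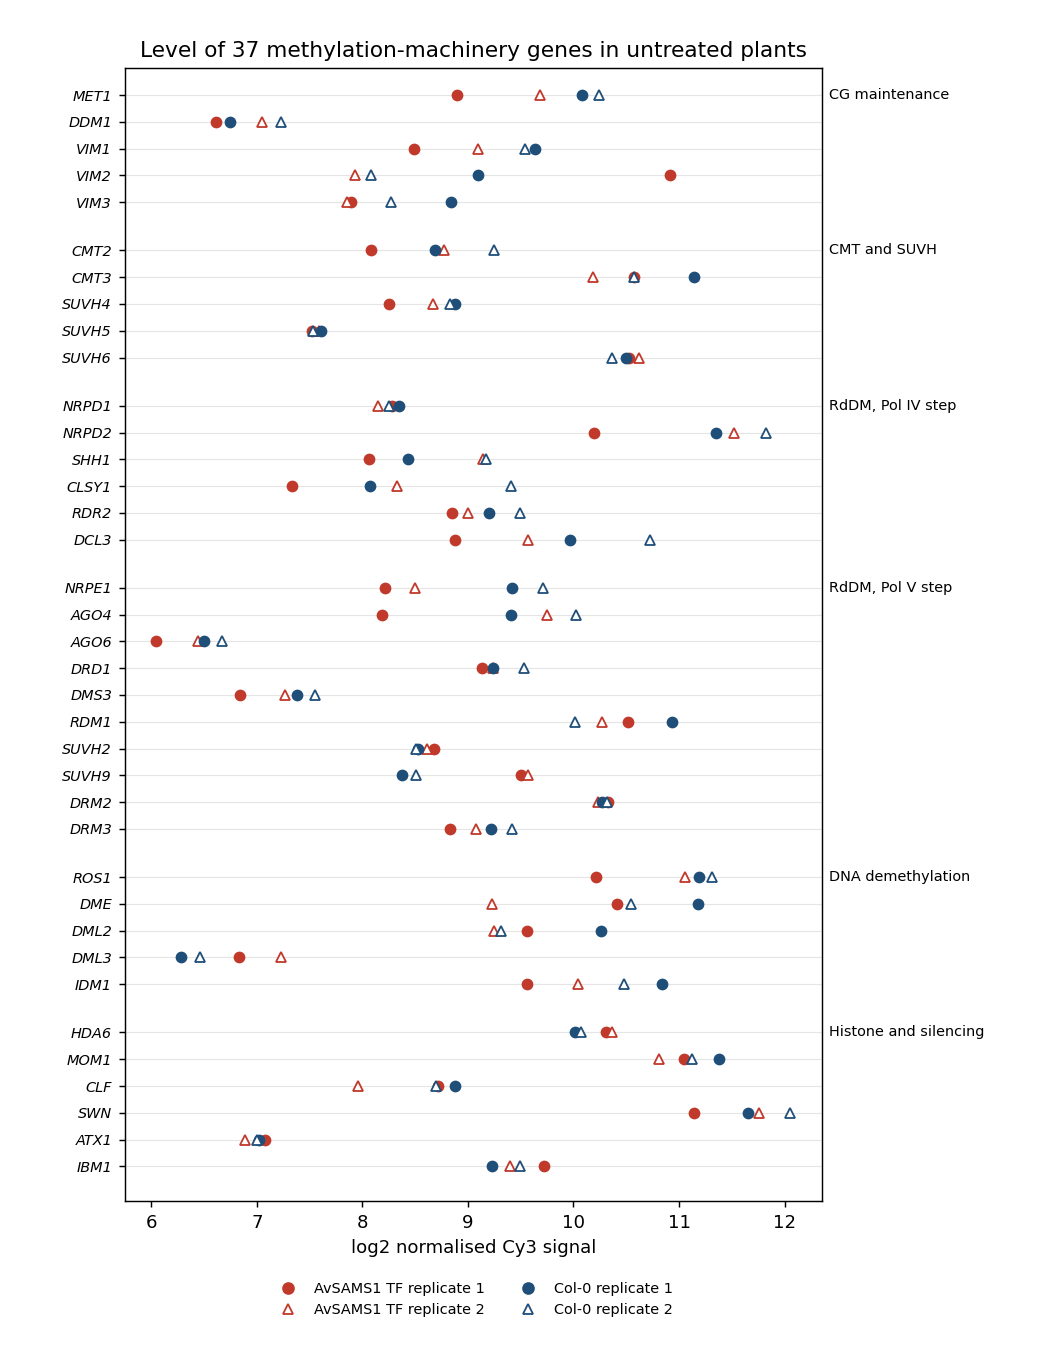
Level of the 37 measured members in untreated plants, as the log2 normalized Cy3 signal on each array. Red symbols are the AvSAMS1 TF arrays and blue symbols the Col-0 arrays, circles are replicate 1 and triangles replicate 2. The 2 red symbols lie left of both blue symbols for 15 members and right of them for 5, with SUVH9 and NRPE1 the most clearly separated.

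By limma, no member passed an adjusted p of 0.05 for the untreated comparison, where 0.185% of the 20556 loci tested did, and 2 members, or 5.41%, had an unadjusted p under 0.05, against 6.57% of all loci. The count over all members was thus not above that of other genes. With the replicate number as a block, 10 members had an unadjusted p under 0.05 (27.0%, against 18.2% of all loci), and 1.17% of all loci had an adjusted p under 0.05. These members were MET1, VIM1, VIM3, CLSY1, DCL3, NRPE1, DME and IDM1, lower in the TF line, and SUVH9 and DML3, higher in it. At the brightest probe of VIM1 the difference was -0.79, and at its second probe -0.08. The lowest adjusted p of a member with the block was 0.106 (NRPE1), so no member was called in that fit either.

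NRPE1 (AT2G40030), the largest subunit of RNA polymerase V, had untreated levels of 8.21 and 8.50 in the TF line, against 9.42 and 9.71 in Col-0 (log2 scale). The TF levels were lower by the same 1.21 in both replicates, and the lines did not overlap. The difference of -1.21 ± 0.29 (SE) had a limma adjusted p = 0.445, with the unadjusted p under 0.05. A second probe of NRPE1 gave a difference of -1.03 (limma adjusted p = 0.609). In the Al-treated channel of the same arrays the levels of NRPE1 were 8.91 and 8.69 in the TF line, against 9.47 and 9.72 in Col-0, again without overlap. The log2 ratios of NRPE1 were 0.93 and 0.13 on the TF arrays, against 0.05 and 0.00 on the Col-0 arrays, and at the second probe they overlapped with 0.51 and -0.26 in the TF line and -0.07 and -0.27 in Col-0. Leaving out 1 array at a time put the difference between -1.35 and -1.06, and the unadjusted p was over 0.05 without TF replicate 1 and without Col-0 replicate 2.

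SUVH9 (AT4G13460), which binds methylated DNA and helps to recruit polymerase V, went the opposite way. Its untreated levels were 9.50 and 9.57 in the TF line, against 8.38 and 8.51 in Col-0. The difference was 1.09 ± 0.26 (SE), with a limma adjusted p = 0.442 and the unadjusted p under 0.05, and it was 1.13 and 1.05 in replicates 1 and 2. In Al-treated plants the levels of SUVH9 were 9.12 and 9.35 in the TF line, against 8.42 and 8.11 in Col-0. The 4 TF levels of SUVH9 thus lay above the 4 Col-0 levels with and without Al. The 2 channels of an array share its spots and normalization, so these are levels from 2 arrays a line and not 4 independent values. Leaving out 1 array at a time put the difference between 1.02 and 1.16, and the unadjusted p was over 0.05 without Col-0 replicate 1 and without Col-0 replicate 2. SUVH2 (AT2G33290), its closest relative, had untreated levels of 8.68 and 8.61 in the TF line, against 8.53 and 8.51 in Col-0, a difference of 0.12. SUVH9 was read by 1 probe.

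**Figure D4:**
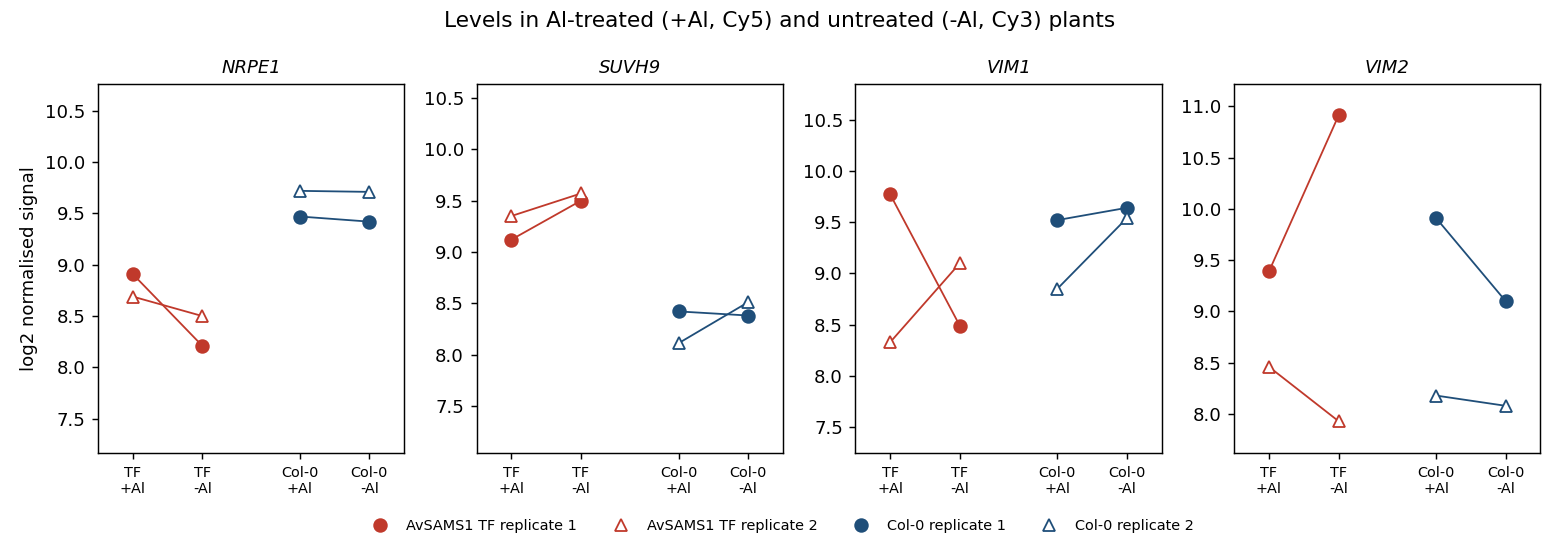
Levels of NRPE1, SUVH9, VIM1 and VIM2 in Al-treated (+Al, Cy5) and untreated (-Al, Cy3) plants, as log2 normalized signal. Lines join the 2 channels of an array, red is the AvSAMS1 TF line and blue Col-0, circles are replicate 1 and triangles replicate 2, and each panel spans the same 3.6 log2 units. The lines are separated in both treatments for NRPE1 and SUVH9, while VIM1 and VIM2 run in opposite directions on TF replicate 1.

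Further members with large untreated differences were DCL3, DME and DML3. DCL3 (AT3G43920) had untreated levels of 8.88 and 9.57 in the TF line, against 9.97 and 10.72 in Col-0, and Al-treated levels of 9.58 and 9.39 in the TF line, against 9.97 and 10.39 in Col-0. The untreated difference was -1.12 (limma adjusted p = 0.702), and it was -1.08 and -1.15 in replicates 1 and 2. DME (AT5G04560) had untreated levels of 10.41 and 9.23 in the TF line, against 11.18 and 10.54 in Col-0, a difference of -1.04 (limma adjusted p = 0.76), but its second probe differed by -0.13 only. DML3 (AT4G34060) had 6.83 and 7.23 in the TF line, against 6.28 and 6.46 in Col-0, a difference of 0.66 (limma adjusted p = 0.738), and only its replicate 2 values were above background. Leaving out 1 array put DCL3 between -1.50 (without Col-0 replicate 1) and -0.74 (without Col-0 replicate 2). It put DME between -1.62 (without TF replicate 1) and -0.45 (without TF replicate 2), and DML3 between 0.46 (without TF replicate 2) and 0.86 (without TF replicate 1). From the processed signal DML3 differed by 2.06. Both TF levels were below both Col-0 levels with and without Al for 6 members (RDR2, DCL3, NRPE1, DRM3, DME and MOM1), or 16.2% against 9.15% of all loci. The count holds for the brightest probe. At second probes NRPE1 stayed separated in both channels and DME overlapped in both. The second probe of MOM1 overlapped in Al-treated plants, with 9.51 and 9.73 in the TF line, against 9.66 and 9.94 in Col-0. The same 5 members that were above Col-0 in untreated plants were also above it in the Al-treated channel of the same arrays (13.5%, against 7.63% of all loci). HDA6 was among them, with 10.31 and 10.36 in untreated and 10.24 and 10.26 in Al-treated TF plants, against 10.01 and 10.07 in untreated and 10.04 and 10.10 in Al-treated Col-0 plants.

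Other genes of the pathways were summarized from a list of 40 further methylation, RdDM, Polycomb and histone demethylase genes, all of them measured. At an unadjusted limma p under 0.05, the Al response gave 1 of the 40 in the TF line (3.45% of all loci) and 0 in Col-0 (7.35%). The difference between the lines gave 0 (0.958% of all loci) and the untreated comparison 1 (6.57%). None of the 40 passed an adjusted p of 0.05 (0.0% of all loci, and 0.185% in the untreated comparison). Their median log2 ratio was 0.14 and 0.02 on the TF arrays, against 0.06 and -0.01 on the Col-0 arrays. AGO9, a germline-related ARGONAUTE, had 2.73 and 0.93 in the TF line, against 1.35 and 0.04 in Col-0 (limma adjusted p = 0.991 in the TF line). SUVR4, an H3K9 methyltransferase, had untreated levels of 7.32 and 7.46 in the TF line, against 8.42 and 8.25 in Col-0, a difference of -0.94 (limma adjusted p = 0.543). MEA, the Polycomb H3K27 methyltransferase of the endosperm, was the 1 gene past 2-fold on both arrays of a line, with 2.67 and 3.86 on the Col-0 arrays (limma adjusted p = 0.75). Of all loci, 3.69% were past 2-fold above 0 on both Col-0 arrays. On the TF arrays MEA had -3.93 and 4.16. The Al-treated channel of TF replicate 1 and the untreated channel of Col-0 replicate 1 were not well above background for MEA.

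Root genes were present in these samples although the labeling step names shoots. Of 16 root markers, such as those of root hairs and the endodermis, 15 were measured and 5 were well above background in all 8 channels. Their summed signal (log2) was 15.00 and 15.91 in Al-treated and 14.16 and 15.79 in untreated TF plants, against 16.53 and 15.75 in Al-treated and 14.18 and 16.09 in untreated Col-0 plants. PYK10, the brightest of them, weighed most in these sums. The untreated level was lower in replicate 1 than in replicate 2 for 10 of the 16 in the TF line and for 15 of the 16 in Col-0. Many of these values lay near background. The root hair genes COBL9, EXPA18, PRP3, PRP1 and RSL4 were above background in untreated plants only on the replicate 2 arrays. In the Al-treated channel EXPA7, EXPA18, PRP1 and RSL4 were above background on no array. No root hair gene was among the 5 above background throughout. The median log2 ratio of the root markers was -0.55 and -1.24 on the TF arrays, against -0.18 and -2.90 on the Col-0 arrays, and their part in the members' values was not tested.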

How the data were processed

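Per the file headers, each array was scanned and extracted with Agilent Feature Extraction, given as version 10.7.3.1 in the submitters' processing notes. It gave the deposited log10 ratio of Cy5 over Cy3, its p-value from the error model of 1 array, and background-subtracted, dye-normalized signal intensity. The headers give version 11.0.1.1 and grid build TAIR10:Nov2010 for both replicate 1 arrays, but 10.7.1.1 and ath1:Jan2004 for both replicate 2 arrays. Median Cy3 signal was 151.6 (TF) and 243.8 (Col-0) in replicate 1, against 512.0 and 505.3 in replicate 2. Replicate number thus cannot be told apart from software version, grid, brightness and day of the untreated plants. The authors also deposited a table of log2 ratios from GeneSpring, used here as an alternative. Log10 ratios were converted to log2. Probes well above background in 1 channel on at least 2 arrays were kept (34740), and a gene was read at its brightest probe. With limma 3.58.1 in R 4.3.3, lmFit and eBayes were fitted to all 4 arrays with 1 coefficient per line, and p-values were adjusted by Benjamini-Hochberg over all probes. For untreated levels, Cy3 intensity was corrected with normexp (offset 50), loess and Aquantile, over 33510 probes. The methods name t-tests for experiments in general and none for the arrays in particular: what is called the methods' t-test is a plain t-test on the same values. The scripts were tested on simulated data.

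The labels mark replicates as experiment 1 and 2 in both lines, and same-numbered arrays deviated together (correlation 0.43 for ratios and 0.65 for untreated levels), so each fit was repeated with replicate as a block. Replicate 2 of both lines shared a slide, and the replicate 1 arrays had a slide each. Alternatives were other background corrections and normalizations, filters, probe means and leaving out each array. The genes and lists were chosen with earlier results of these data known. Full values were planned for genes past 2-fold on both arrays of a line, with an unadjusted p under 0.05, or among the 3 highest or 3 lowest means of a comparison. Many other members, such as DDM1, VIM3, CMT2, AGO4 and IDM1, are also given in full, and this rule did not select them. Counts restricted to 1 replicate number or to the 31 genes above background throughout, and at second probes, were added after seeing the data. The number of arrays limits the precision. No sequences were used here.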

Additional observations from a re-analysis of the deposited data

Results flagged for a closer look

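For 4 genes every TF array lay on one side of 0 and every Col-0 array on the other (10.8% of the members and 3.96% of all loci). The log2 difference in the Al response, TF minus Col-0, was 0.56 for CMT2, 0.69 for DRD1 and 0.96 for IDM1, which were above 0 in the TF line and below 0 in Col-0. It was -0.46 for IBM1, which was below 0 in the TF line and above 0 in Col-0. None of these differences passed limma's test (adjusted p = 0.999 for each), and neither the second probe of DRD1 nor the 2 further probes of IBM1 kept the lines on opposite sides.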

How the results depend on the processing

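The Al response of the TF line rested on which of its arrays was used. The count of members at an unadjusted p under 0.05, 0 by limma, was 1 by the methods' t-test (2.70%, against 3.00% of all loci), 2 with no filter on dim probes (5.26%, against 4.17%), 1 after normexp and loess (2.70%, against 3.72%) and 5 after normexp and median centring (13.5%, against 11.7%), and ran between 0 and 9 on leaving out 1 array (9 without TF replicate 2, or 24.3% against 17.5%). The TF median ran between -0.04 and 0.64, VIM2 between -1.73 and 0.58 and ROS1 between -0.09 and 1.63, and on the shared slide alone they were -0.04, 0.58 and -0.09. After median centring, which moved the median of all genes to 0.23 in the TF line and 0.17 in Col-0, SUVH9 was 0.02 and IBM1 0.14 in the TF line, and Col-0 gave 1 member (2.70%, against 15.4%) and a median of 0.17. In Col-0 the t-test called 1 probe, and leaving out 1 array put the median between -0.20 and 0.03 and AGO6 between -1.51 and 0.24 (0.03 and 0.24 without Col-0 replicate 2).

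For the difference between the lines, the t-test gave 2 members (5.41%, against 1.44%) and the replicate block 1 (2.70%, against 2.96%). On the shared slide VIM2 and NRPD1 were both 0.47. Leaving out 1 array gave 0 to 8 members, a median of 0.06 to 0.87, VIM2 of -2.25 to 0.06 and NRPD1 of -1.13 to 0.28, with 8 members and 0.87 without TF replicate 2. In untreated plants 73 probes were called. The count was 458 with the replicate block and 0 with the mean of all probes, the t-test, the processed signal, the strict filter or without any 1 array. Members at an unadjusted p under 0.05 numbered 10 with the block (27.0%, against 18.2%) and 0 to 9 on leaving out 1 array (9 without TF replicate 2, or 24.3% against 14.3%, and 0 without Col-0 replicate 2). The untreated median was -0.49 with the processed signal, -0.27 on the shared slide and -0.45 to -0.19 on leaving out 1 array, and VIM2 was -0.15 on the shared slide and -0.66 to 2.32. NRPE1 stayed between -1.52 and -1.06 and SUVH9 between 1.02 and 1.35. The block changed no adjusted call of a member. The cause of these shifts was not tested.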
